A study of Homo sapiens with 12 samples.

Results

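The last 4 h of a 12 h block of transcription were followed in control NOMO-1 cells. The comparison set the 2 shNS libraries at 12 h against the 2 at 8 h, and its members were all 9529 gene rows of 9529 in the series, after 46 rows of ERCC spike-in transcripts were set apart. NOMO-1 is an established human line of acute myeloid leukaemia cells that resemble monocytes. All cells carried a lentiviral hairpin, a non-targeting one (shNS) or 1 of 2 against ALKBH5 (shALKBH5), the gene of an RNA demethylase, and all received actinomycin D for 0, 8 or 12 h, in 6 groups of 2 libraries, per the titles. The labels' treatment text instead names lentivirus against FTO and the compounds CS1 and CS2. The 2 libraries of a knockdown group are from different hairpins, and the headers call them D and E. No label says whether the shNS replicates came from separate cultures, and a p-value here may therefore reflect technical spread alone.

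Actinomycin D binds DNA and blocks transcription, so where the block is complete an RNA present when the drug is added can only stay or be lost. How complete the block was for each RNA was not tested here. Most mRNAs are degraded after their poly(A) tail is shortened, by decapping and digestion from the front or by the exosome from the back, at speeds that differ widely between genes. Short-lived mRNAs typically code for transcription factors and other regulators, and long-lived ones for ribosomal proteins, metabolic enzymes and secreted or lysosomal proteins. Structured non-coding RNAs such as the RNA of RNase P and 7SK are long lived and have no poly(A) tail, so a selection for mRNA carries through only a part of them.

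The cells carried myeloid transcripts. Of 20 myeloid and monocytic markers 13 were among the rows, including CD33, CD68, LYZ, SPI1 and CEBPA, and their summed signal at 12 h was 38.3% and 37.8% of that at 8 h in replicates 1 and 2. Of the markers of other cells, no erythroid, megakaryocyte, epithelial or fibroblast gene was listed, and of the T and NK cell markers only NKG7 was listed. The median gene signal was 9.88 and 8.43 at 8 h and 2.85 and 2.74 at 12 h, on the deposited scale, whose counting depth is unknown. In a bulk library fewer cells and less RNA per cell cannot be told apart. At 12 h 16.6% and 17.7% of the genes lay under a signal of 1, against 0 and 12 genes at 8 h.

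Over all protein-coding genes the late change went with the share of codons that end in G or C, and 40 codons of 5 genes are printed to show what that share looks like. With the readthrough TGIF2-C20orf24 set aside, they are among the first 3 protein-coding genes named in each direction by the fitted late change relative to the median gene, printed from codon 2 to codon 41 of the GENCODE release 29 transcript on GRCh38. Capitals mark a G or C at the third position of a codon. CITED4, a co-activator of transcription, lies on the minus strand at chr1:40861051-40862366, and 91.8% of its codons end in G or C.
CITED4: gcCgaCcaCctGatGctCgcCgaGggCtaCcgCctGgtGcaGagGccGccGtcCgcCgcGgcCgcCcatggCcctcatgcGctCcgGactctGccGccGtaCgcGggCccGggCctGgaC
PRAM1, a myeloid adaptor protein gene at chr19:8490056-8503112 on the minus strand, has 75.1%.
PRAM1: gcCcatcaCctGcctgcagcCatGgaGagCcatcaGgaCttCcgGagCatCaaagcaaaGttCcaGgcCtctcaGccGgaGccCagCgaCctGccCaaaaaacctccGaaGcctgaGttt
The other 3 are among the genes with the largest late falls. PFDN4, a subunit gene of the chaperone prefoldin at chr20:54207847-54228052 on the plus strand, has 34.3%.
PFDN4: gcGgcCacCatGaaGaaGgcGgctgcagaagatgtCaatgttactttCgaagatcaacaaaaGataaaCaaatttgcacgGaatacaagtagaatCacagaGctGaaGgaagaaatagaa
PCNA, the sliding clamp of DNA polymerase at chr20:5114953-5126626 on the minus strand, has 50.6% over its whole coding region but 35 of 40 codons in the stretch shown.
PCNA: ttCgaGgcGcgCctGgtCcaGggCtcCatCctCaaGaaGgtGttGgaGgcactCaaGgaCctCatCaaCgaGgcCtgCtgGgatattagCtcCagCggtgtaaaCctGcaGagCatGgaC
GMPS, the enzyme that makes GMP, at chr3:155870536-155944026 on the plus strand, has 35.5%.
GMPS: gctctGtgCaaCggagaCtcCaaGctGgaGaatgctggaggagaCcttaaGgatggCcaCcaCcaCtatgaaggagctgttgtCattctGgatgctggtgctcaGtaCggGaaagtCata
The stretches of CITED4 and PRAM1 hold 36 and 28 such codons, and those of PFDN4 and GMPS 16 and 20.

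Nearly every gene fell between 8 and 12 h on the deposited scale. The median gene kept 30.0% of its 8 h signal in replicate 1 and 32.9% in replicate 2, and 90% of genes lay between 20.3% and 43.9% in the first and between 23.5% and 46.7% in the second. Between the replicates, 9514 genes fell in both, 12 went in opposite directions and 3 rose in both. The 2 values at 12 h lay below the 2 at 8 h for 9508 genes and above them for 1, RPPH1. Under limma on the deposited scale 9518 genes (99.9%) were lower at an adjusted p under 0.05, and 1 was higher. That count rests on a shift shared by all genes of a library, and genes are not replicates. For the median over genes of log2 signal, 1.48 ± 0.04 at 12 h and 3.19 ± 0.16 at 8 h (SD, n = 2), the exact two-sided permutation p was 0.333, the smallest that 2 against 2 allows.

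The spike-in transcripts did not share the fall, but their spread was wide. Their median kept 103% and 99.6% of its 8 h signal, with an SD over the 46 transcripts of 0.64 and 0.38 on the log2 scale, against 0.36 and 0.32 over the genes. If the deposited signal had been scaled to these transcripts, a step no label states, that step would have fixed their flat median. The flat median is therefore no separate check of the fall of the genes. Of the 46, 4 fell by more than 0.5 in both replicates. The part of this spread in the differences between genes was not tested. Ribosomal RNA, which a selection for mRNA largely removes, differed between replicates: RNA18S5 kept 34.4% and 62.0%, and RNA28S5 33.2% and 58.7%.

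**Figure D1:**
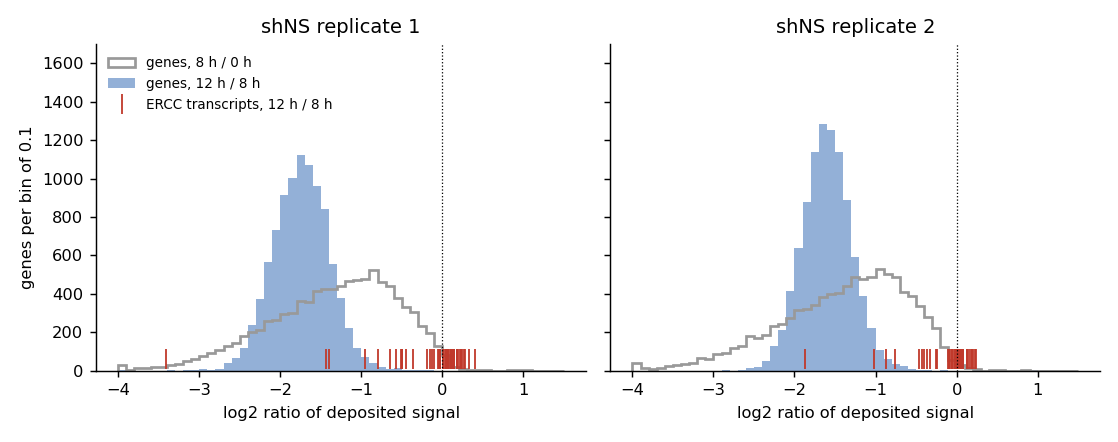
Number of genes per bin of 0.1 (vertical axis) by the log2 ratio of deposited signal (horizontal axis) in each shNS replicate, for 12 h over 8 h (filled) and 8 h over 0 h (outline), with 1 tick per ERCC transcript for 12 h over 8 h. The late ratios form a narrow peak around medians of -1.74 and -1.60, and the early ones a broad one around -1.24 and -1.28. Values beyond the axis are drawn at its ends.

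The last 4 h differed from the first 8 h in speed. In the first 8 h the median gene kept 42.2% and 41.1%, a fall of 0.16 log2 units per hour in each replicate, and in the last 4 h the fall was 0.43 and 0.40 per hour. If each interval were exponential, the median gene would halve in 6.43 and 6.24 h before 8 h and in 2.3 and 2.5 h after it. The SD over genes of the log2 change was 0.80 and 0.79 over the first 8 h and 0.36 and 0.32 over the last 4 h. The second interval was shorter and gave genes less time to part, so the 2 spreads are not like for like. As deposited, the late rate was the more negative of the 2 for 8162 genes (85.7%) and the less negative for 101 (1.06%), by limma. Both rates use the 8 h libraries, so an 8 h library that is too high makes the early fall too small and the late fall too large. Without 8 h replicate 2 the 101 became 45, without 12 h replicate 1 they became 58, and with all 12 libraries in the fit the counts were 5334 and 12.

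Abundant, long-lived mRNAs made the change of speed plain. FTH1, the heavy chain of the iron store ferritin, measured 661 and 633 at 0 h, 704 and 627 at 8 h and 335 and 294 at 12 h. It had not fallen by 8 h in replicate 1, and then kept 47.5% and 46.9%. GAPDH, a glycolytic enzyme often used as a reference, measured 4211 and 4253 at 0 h, 4333 and 3642 at 8 h and 1665 and 1452 at 12 h. It kept 103% and 85.7% over the first 8 h and 38.4% and 39.9% over the last 4 h. RPLP1, a protein of the ribosomal stalk, kept 98.9% and 99.7%, then 40.7% and 42.7%. The 81 cytoplasmic ribosomal protein genes as a list kept a median of 93.5% and 83.2% over the first interval and 33.4% and 33.5% over the second. Over the 78 nuclear-encoded genes of oxidative phosphorylation the medians were 77.9% and 70.2%, then 30.2% and 31.5%.

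Some short-lived mRNAs went the other way, and the 5 below were picked for a large late minus early rate. The zinc finger list did not as a whole. Its 86 genes kept medians of 24.9% and 24.1% over the first 8 h. Their median late minus early rate was -0.145 log2 units per hour as deposited. MYC, a growth-promoting transcription factor, measured 183 and 185 at 0 h, 4.96 and 4.18 at 8 h and 1.94 and 1.99 at 12 h. It kept 2.7% and 2.26% over the first 8 h, and 39.1% and 47.7% over the last 4 h, so most of the loss came early. DDIT4, an inhibitor of mTORC1, kept 3.4% and 3.19%, then 38.8% and 44.4%. DDIT3, a transcription factor of the stress response, kept 6.42% and 5.09%, then 47.2% and 53.5%. SPSB1, an adaptor of ubiquitin ligases, kept 6.49% and 4.67%, then 39.6% and 61.4%, and CCDC12 kept 4.34% and 5.98%, then 68.0% and 57.7%. In each of these 5 genes both 12 h values lay below both 8 h values, as they did in 9508 of all 9529 genes.

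**Figure D2:**
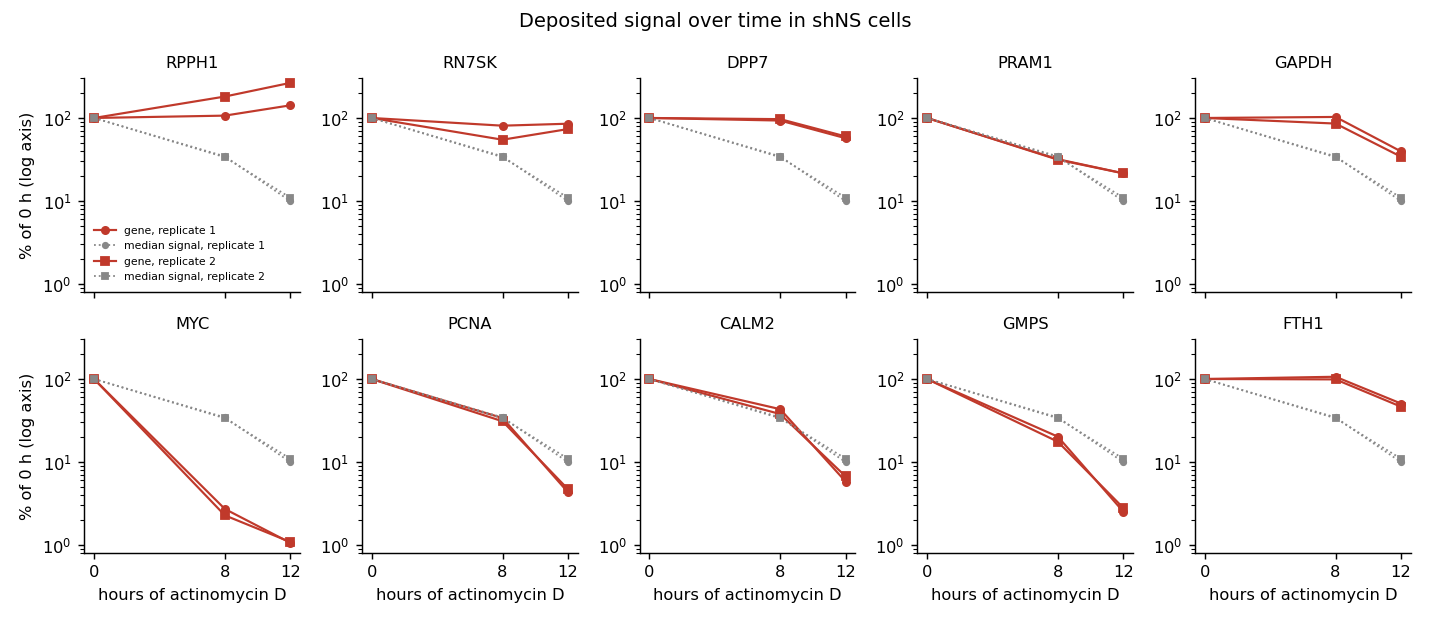
Deposited signal as a percentage of 0 h (vertical axis, log scale) against hours of actinomycin D for 10 named genes (red) and for the median signal of each library (grey), with replicate 1 as circles and replicate 2 as squares. MYC lost most of its signal before 8 h, GAPDH and FTH1 lost most of theirs after 8 h, and RPPH1 ended above its starting signal in both replicates, at 142% and 265%.

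To compare genes within the last 4 h, libraries were also scaled by the median of ratios over the genes, and a change on this relative scale is that of a gene against the bulk of genes. A gene is said below to have fallen less where it was higher, and to have fallen more where it was lower, on this scale at an adjusted p under 0.05 by limma. The fit called 2769 genes (29.1%) as having fallen less and 1667 (17.5%) as having fallen more. The median of all genes stood at 0.07 and not at 0, and centring on it, chosen after seeing the data, turned the split to 2035 and 2202. With the 4 libraries at 8 and 12 h alone it was 2089 and 2176, and without 8 h replicate 1 the 1667 became 1013. The spread in this fit comes from the 6 shNS libraries. With the 6 knockdown libraries also in the fit no gene was called by limma, and 1257 had an unadjusted p under 0.05. Across genes the late changes of the replicates had a Pearson r of 0.79, a description over genes of 2 pairs of libraries.

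3 small structured RNAs had more signal at 12 h than at 8 h in both replicates. RPPH1, the RNA of RNase P, measured 6.64 and 6.99 at 8 h and 8.84 and 10.2 at 12 h, and rose by 0.47 as deposited (SE 0.17, limma adjusted p = 0.00422). Without 12 h replicate 2 that call was lost (0.37, adjusted p = 0.132), as it was with all 12 libraries in the fit (0.47, adjusted p = 0.124 by limma). RN7SK, the 7SK RNA that restrains the elongation factor P-TEFb, measured 75.3 and 39.6 at 8 h and 79.5 and 53.2 at 12 h, and the groups overlapped (0.25 as deposited, SE 0.14, limma adjusted p = 0.0749). RMRP, the RNA of RNase MRP, measured 2.82 and 1.82, then 3.25 and 2.12, also with overlap. Relative to the bulk of genes all 3 fell less, by 2.2, 1.98 and 1.89 log2 units. In knockdown lines D and E, as deposited, RPPH1 kept 85.9% and 141%, RN7SK 164% and 141%, and RMRP 129% and 130%, where the median gene of those lines kept 48.1% and 32.9%.

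The signal recognition particle RNAs were not stable enough between libraries to compare. RN7SL2 measured 3410 and 133 at 0 h, 64.7 and 37.5 at 8 h and 158 and 16.6 at 12 h, and RN7SL1 1982 and 94.4, then 48.3 and 29.3, then 76.0 and 11.2. Both rose in replicate 1 and fell in replicate 2 in the last 4 h, and neither passed the relative test. The 13 snoRNAs, guides for modification of ribosomal RNA, kept medians of 57.4% and 58.6%, and 8 of them fell less and 0 fell more. Of all genes 29.1% fell less and 17.5% fell more. SNORD36A measured 7.29 and 7.18 at 8 h and 4.49 and 5.59 at 12 h. It lies at chr9:133350456-133350528, inside RPL7A, whose mRNA measured 2180 and 1940, then 534 and 454. SNORD104, inside SNHG25, measured 12.2 and 17.1, then 9.29 and 10.2. SNORD86, inside NOP56, measured 4.49 and 11.6, then 5.05 and 4.72, and its relative call was lost without any 1 of the 4 libraries at 8 and 12 h except 8 h replicate 2. Reads of these genes and their hosts may be shared.

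The protein-coding genes given here are from those with the smallest late falls. Relative values that do not overlap between 8 and 12 h were a condition for naming them, so agreement of the replicates was required. CITED4 measured 13.8 and 11.5 at 8 h and 8.78 and 8.76 at 12 h, so it kept 63.6% and 75.9% (1.2 on the relative scale, SE 0.07, limma adjusted p = 3.14e-05). PRAM1 measured 39.8 and 35.7, then 27.0 and 24.4, and kept 67.7% and 68.4%. DPP7, a lysosomal dipeptidase, measured 106 and 96.0, then 65.03 and 59.35. DPP7 had barely fallen before, keeping 93.0% and 96.8% over the first 8 h and 61.2% and 61.9% over the last 4 h. NUPR1, a stress-induced chromatin protein, measured 53.9 and 41.3, then 34.2 and 26.2, and kept 63.5% in each replicate. HDAC10, a deacetylase of polyamines, kept 60.01% and 61.38%. PPP1R27, an inhibitor of protein phosphatase 1, kept 54.9% and 64.7%. CDK11A, a kinase with a near-identical neighbour so that its reads are uncertain, kept 56.6% and 61.2%. CITED4 and PRAM1 had lost most of their signal before 8 h, keeping 20.6% and 16.9%, and 31.8% and 31.4%, whereas NUPR1 kept 104% and 97.1%.

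The protein-coding genes given here, from those with the largest late falls, kept 10.0% to 18.9% of their 8 h signal. PFDN4 measured 9.42 and 6.5 at 8 h and 0.943 and 0.8 at 12 h, and kept 10.0% and 12.3% (-1.4 on the relative scale, SE 0.11, limma adjusted p = 6.81e-05). PCNA measured 136 and 123, then 17.3 and 18.7, and kept 12.7% and 15.2% (-1.11, SE 0.08, adjusted p = 4.31e-05 by limma). GMPS measured 31.5 and 26.0, then 3.92 and 4.14, and kept 12.5% and 15.9%. Groups that do not overlap were a condition for naming these genes. As deposited, 9508 of all 9529 genes had both 12 h values below both 8 h values. SLIRP, which stabilises mitochondrial RNA, kept 13.8% and 16.3%. CALM2, 1 of the calmodulin genes, measured 166 and 134, then 22.2 and 23.8, and kept 13.4% and 17.7%. SPC25 and CENPU, both of the kinetochore, kept 11.5% and 18.9%, and 13.0% and 17.2%. MT1X, a metallothionein, kept 17.6% and 13.6%, and PSMG2, a chaperone of proteasome assembly, 14.5% and 17.7%.

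Some rows with large falls share sequence with another gene. MIR3064 measured 32.6 and 31.8 at 8 h and 3.1 and 2.9 at 12 h, after a rise from 22.6 and 21.0 at 0 h. It lies at chr17:64500774-64500839, inside DDX5, which measured 85.4 and 74.1, then 18.0 and 17.7. RPS14P3, a pseudogene of RPS14, kept 12.2% and 14.2%, while RPS14 itself measured 2250 and 1880, then 765 and 605. MIR4721, inside TUFM, kept 1.76% in replicate 1 and 42.0% in replicate 2. TGIF2-C20orf24, a readthrough of 2 genes, kept 4.27% and 27.0%, and its call was lost without 8 h replicate 1 (-1.31, limma adjusted p = 0.143) or 8 h replicate 2 (-1.6, adjusted p = 0.0788).

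**Figure D3:**
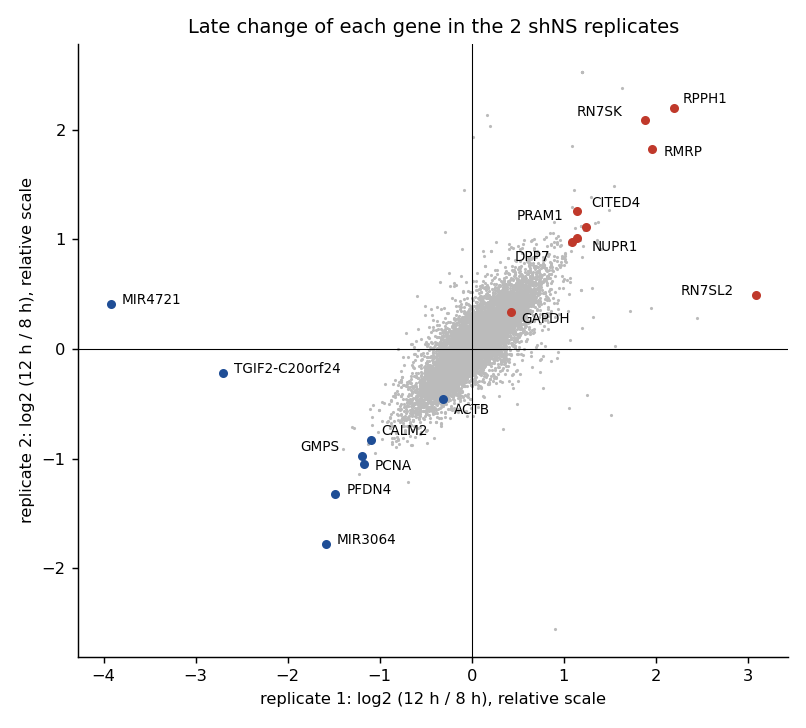
Late change of each gene in shNS replicate 1 (horizontal) and replicate 2 (vertical), as log2 of 12 h over 8 h after median-of-ratios scaling, with named genes in colour. RPPH1, RN7SK and RMRP lie at the upper right, PFDN4 and MIR3064 at the lower left, and MIR4721, TGIF2-C20orf24 and RN7SL2 are far from 0 in replicate 1 only.

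Lysosomal and myeloid genes fell less. Of 48 genes of the lysosome and the V-ATPase, the pump that acidifies it, 37 (77.1%) fell less and 2 (4.17%) fell more. Of all genes 29.1% fell less and 17.5% fell more. The list median was 0.34 against 0.07 over all genes. Members kept a median of 37.2% and 39.5%. ATP6AP1, an accessory subunit of the pump, measured 285 and 249 at 8 h and 149 and 126 at 12 h. CTSH, a protease, kept 48.2% and 49.8%, and PSAP, the precursor of the saposins, 46.3% and 42.9%. CTSD, the most abundant of them, measured 4488 and 4310, then 1964 and 1854. Its call was lost without 8 h replicate 1 (0.46, adjusted p = 0.174 by limma) or 8 h replicate 2 (0.61, adjusted p = 0.0751). Of 32 myeloid differentiation genes 18 (56.2%) fell less and 2 (6.25%) fell more (median 0.31). Among those that fell less, CD68, a macrophage glycoprotein, measured 140 and 146, then 72.1 and 65.1. Of 8 antigen presentation genes 5 (62.5%) fell less and 0 fell more: CD74, the invariant chain, kept 47.1% and 44.2%, and HLA-C 41.8% and 41.9%. The median GC content of the transcripts was 50.4% for the lysosomal list, 55.6% for the myeloid and 56.2% for the antigen presentation list, against 49.2% over all genes.

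Glycolysis was split between enzymes. Of 24 genes 16 (66.7% against 29.1% of all genes) fell less and 3 (12.5% against 17.5%) fell more (median 0.38, median GC 55.3%). ENO2, an enolase, measured 51.5 and 49.0 at 8 h and 26.0 and 25.4 at 12 h. LDHA, which makes lactate, measured 119 and 112, then 20.2 and 21.6, and SLC16A1, the transporter that exports it, 16.0 and 14.8, then 2.58 and 2.48. Both fell more, by 0.73 and 0.86 on the relative scale. GAPDH was 0.38 above the bulk (limma adjusted p = 0.0404), a call that was lost without 8 h replicate 1 (adjusted p = 0.202), 8 h replicate 2 (0.24), 12 h replicate 1 (0.12) or 0 h replicate 1 (0.053).

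Immediate early and AP-1 genes and the hosts of snoRNAs also fell less. Of 23 immediate early and AP-1 genes 14 (60.9%) fell less and 3 (13%) fell more (median 0.37, median GC 53.3%). Of all genes 29.1% fell less and 17.5% fell more. PPP1R15A, which reverses the stress block of translation, measured 59.0 and 49.5 at 8 h and 26.5 and 24.1 at 12 h, and FOSL2, an AP-1 subunit, 11.7 and 10.7, then 5.23 and 5.14. MYC was 0.51 above the bulk (SE 0.08, limma adjusted p = 0.000802). Of 19 snoRNA host genes 13 (68.4%) fell less and 0 fell more (median 0.35, median GC 49.7%). GAS5 measured 608 and 522, then 281 and 225, and SNHG12 16.3 and 13.8, then 8.35 and 7.83.

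Genes of protein breakdown, folding and DNA replication fell more. Of 43 proteasome genes 29 (67.4%) fell more and 2 (4.65%) fell less, with a median of -0.32 at a median GC of 49.9%. Of all genes 17.5% fell more and 29.1% fell less. PSMB1, a core subunit, measured 128 and 112 at 8 h and 21.0 and 19.9 at 12 h. PSMA7, another core subunit, went the other way and measured 342 and 316, then 157 and 145. Of 29 heat shock and chaperone genes 15 (51.7%) fell more and 4 (13.8%) fell less (median -0.19, median GC 44.7%). CCT5 and CCT2, of the ring that folds actin and tubulin, kept 17.3% and 18.8%, and 17.9% and 20.2%. HSPB1, a small heat shock protein, kept 46.6% and 42.5%. Of 48 DNA replication genes 27 (56.2%) fell more and 4 (8.33%) fell less (median -0.28, median GC 46.8%). PCNA and PRIM1, the primase subunit, had the largest called falls, and PRIM1 measured 13.1 and 10.8, then 1.9 and 2.15. Without 8 h replicate 2 the 15 chaperone genes became 9. Of 52 genes of mitosis 16 fell more, or 9 without the same library, and 11 fell less (median -0.10). The 16 and 11 are 30.8% and 21.2% of the mitosis list, against 17.5% and 29.1% of all genes. CDK1, the kinase that starts mitosis, kept 15.2% and 19.9%, whereas TPX2 and TACC3, both spindle proteins, kept 36.1% and 37.9%, and 41.2% and 44.9%.

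Genes of the mitochondrial ribosome, the spliceosome and translation also fell more. Of 77 mitochondrial ribosomal protein genes 39 (50.6%) fell more and 4 (5.19%) fell less (median -0.21, median GC 48.9%). Of all genes 17.5% fell more and 29.1% fell less. MRPS10, the most abundant, measured 252 and 213 at 8 h and 57.7 and 52.9 at 12 h, and MRPL20 kept 18.6% and 18.0%. Of 63 spliceosome and hnRNP genes 31 (49.2%) fell more and 3 (4.76%) fell less (median -0.15, median GC 48.4%). SNRPG, a core Sm protein, kept 16.3% and 18.1%, and SRSF11, a splicing regulator, 51.8% and 54.6%. Of 40 translation factor genes 15 (37.5%) fell more and 3 (7.5%) fell less (median -0.08). EIF3E, a subunit of eIF3, measured 356 and 281, then 54.99 and 53.89, and EIF3M kept 17.1% and 20.5%. Of 78 oxidative phosphorylation genes (median 0.04) 17, or 21.8% against 29.1% of all genes, fell less, with COX8A keeping 42.4% and 40.4%, and 15, or 19.2% against 17.5%, fell more, with NDUFS4 keeping 17.2% and 19.3%. The 17 became 6 without 12 h replicate 1, 8 without 8 h replicate 2, 11 without 8 h replicate 1 and 26 without 12 h replicate 2.

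Ribosomal protein and histone modifier genes gave counts that depend on single libraries. Of 81 cytoplasmic ribosomal protein genes 24 fell less and 5 fell more (median 0.13), RPL35 keeping 46.2% and 41.0%. The 24 are 29.6% of the list, near the 29.1% of all genes, and the 5 are 6.17% against 17.5%. Scaling to the total gene signal moves all genes together and puts the median of all genes at -0.12, with 875 genes higher and 2882 lower. There the ribosomal list had 11 and 21 such genes and a median of -0.05. A shift of all genes together had to leave it above the median of all genes. Without 8 h replicate 1 or 8 h replicate 2 the 24 became 5, and without 12 h replicate 1 they became 7. The 5 that fell more became 2 or 0 without these 8 h libraries, and 2 without 12 h replicate 2. RPLP1 was called at 0.47 (limma adjusted p = 0.0186), and its call was lost without 8 h replicate 1 (0.144), 8 h replicate 2 (0.174) or 12 h replicate 1 (0.0546). Of 71 histone modifier and remodeller genes 29 (40.8%) fell less and 8 (11.3%) fell more (median 0.14). Under total scaling the list's median of -0.04 also lay above that of all genes, as such a shift requires. The 29 became 14 without 8 h replicate 2, 16 without 12 h replicate 1 and 18 without 8 h replicate 1. HDAC5 kept 43.6% and 45.1%, and HDAC2 15.7% and 17.8%. The lysosomal, myeloid, glycolytic, immediate early, antigen presentation and snoRNA host lists kept medians above 0 under total and ribosomal protein scaling as well. The proteasome, replication, chaperone, mitoribosomal and spliceosome lists kept medians below 0. Both scalings moved all genes down by nearly the same amount, so the medians below 0 had to stay there and the order of the lists could not change.

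**Figure D4:**
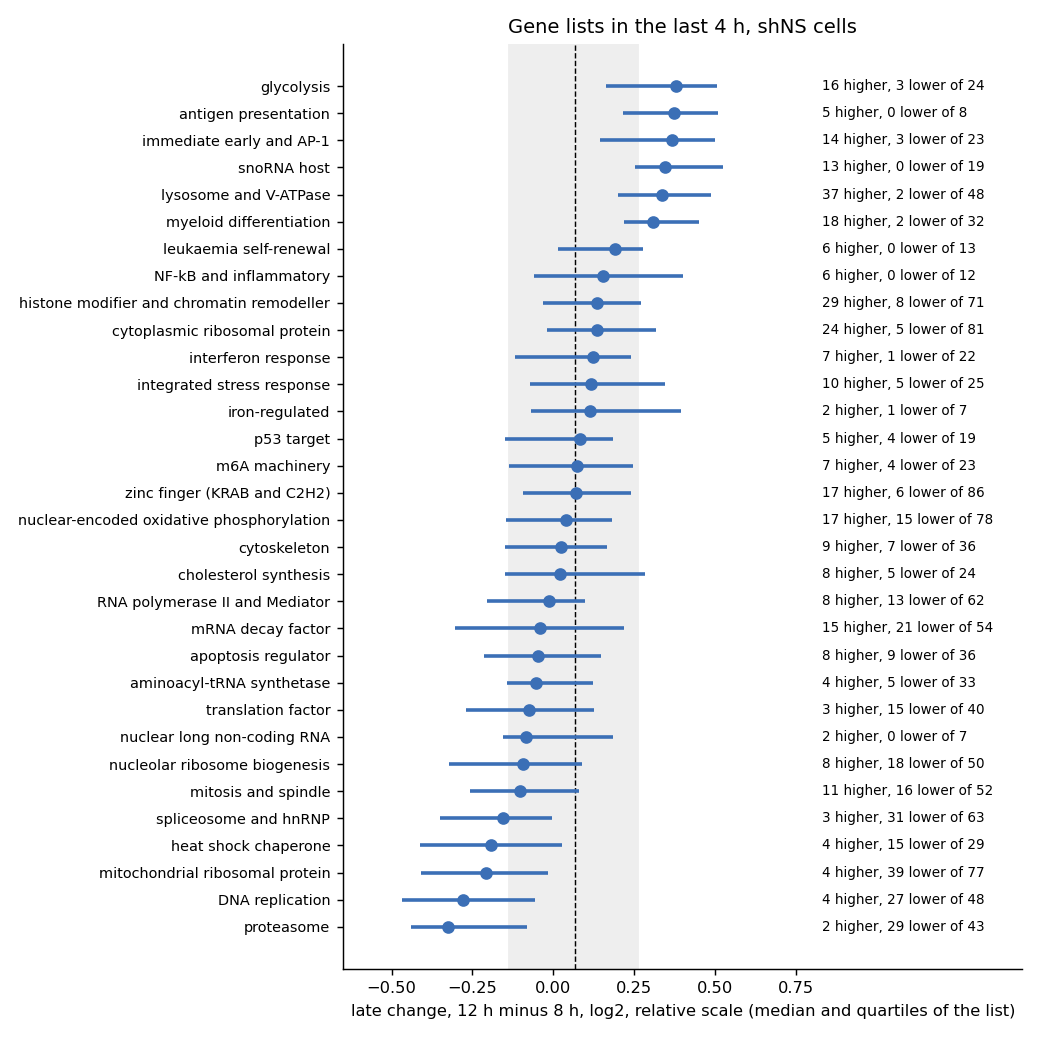
Median (point) and quartiles (line) of the late change on the relative log2 scale for each gene list with at least 7 measured genes, except the small structured RNAs, with the number of genes called in each direction. The dashed line and grey band give the median, 0.07, and the quartiles of all genes. Glycolysis stands highest at 0.38 and the proteasome lowest at -0.32.

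Genes of the RNA methylation machinery were called about as often as all genes. Of 23 m6A genes 7 (30.4%) fell less and 4 (17.4%) fell more, near the 29.1% and 17.5% of all genes, and their median of 0.07 was that of all genes. The 7 became 4 without 12 h replicate 1, and the 4 became 2 without 8 h replicate 1. ALKBH5 measured 84.3 and 78.6 at 0 h, 35.9 and 32.1 at 8 h and 8.22 and 8.3 at 12 h, and fell more than the bulk by 0.30 (SE 0.06, limma adjusted p = 0.00283). FTO, the other m6A demethylase, kept 23.2% and 25.2% and stood at -0.31, a call lost without 8 h replicate 1 (adjusted p = 0.0726 by limma). METTL5, a methylase of ribosomal RNA, kept 15.9% and 17.9%, and RBM15, an adaptor of the m6A writer, 39.3% and 43.2%. Of the nuclear long non-coding RNAs, MALAT1 measured 375 and 288 at 8 h and 138 and 116 at 12 h and fell less, a call lost without 8 h replicate 2 (0.28, adjusted p = 0.0788 by limma). NEAT1 kept 28.1% and 32.5%, at 0.01 on the relative scale (limma adjusted p = 0.912). ACTB, which codes for actin, measured 2243 and 2143, then 518 and 492, and its relative value of -0.39 (limma adjusted p = 0.021) was no longer called without any 1 of the 4 libraries at 8 and 12 h.

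The late change went with the base composition of the transcript. Over 8968 protein-coding genes split into 5 equal groups by GC content, the median relative change was -0.12 in the group with 31.8% to 41.4% GC, then -0.04, 0.05 and 0.16, and 0.25 in the group with 58.6% to 74.0%. In the lowest group 7.53% fell less and 32.3% fell more, and in the highest 52.2% and 4.74%. Each replicate showed the gradient. The Spearman rho over genes was 0.52 in replicate 1 and 0.36 in replicate 2, for genes that share the same 4 libraries and their scaling. In the separate libraries of knockdown lines D and E it was 0.20 and 0.23. Over the first 8 h it was 0.25 and 0.22. By the share of codons ending in G or C, the medians of 5 equal groups ran from -0.12 to 0.21. Whether the gradient comes from the RNA or from the libraries was not tested.

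Other features were weaker. By copies of ATTTA in the 3′ UTR, a core of AU-rich elements, the median relative change was 0.17 for the 2684 genes with 0 copies and -0.07 for the 1727 with 7 or more. Such stretches lower GC content as well, and the GC content of 3′ UTRs had a rho of 0.46 and 0.31. The 135 protein-coding genes with 1 exon kept less than others early, with medians 0.76 and 0.68 below that of all genes by 8 h, but not late, when they stood 0.04 and 0.10 above it. In lines D and E they stood 0.24 and 0.19 above it over the same 4 h.

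**Figure D5:**
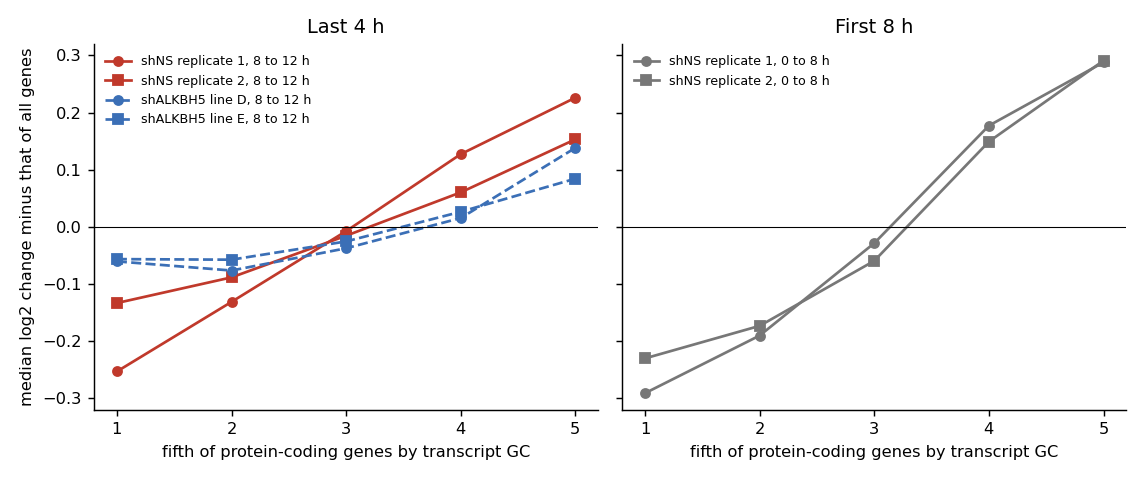
Median log2 change of the protein-coding genes in each of 5 equal groups by transcript GC content, minus the median of all genes, for the last 4 h in the 2 shNS replicates and the 2 knockdown lines (left) and for the first 8 h in the shNS replicates (right). In replicate 1 the late medians went from -0.25 in the lowest group to 0.23 in the highest, and in replicate 2 from -0.13 to 0.15. In lines D and E they went from -0.06 to 0.14 and from -0.06 to 0.08.

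On the relative scale 2566 genes (26.9%) slowed against the bulk between the intervals and 1646 (17.3%) sped up, by the limma test of the late minus the early rate. MYC slowed most among called genes with a mean signal of at least 10, by 0.63 log2 units per hour (SE 0.03, adjusted p = 1.44e-06), followed by CCDC12 at 0.62, DDIT4 at 0.57, SNORD36A at 0.57, DDIT3 at 0.53 and SPSB1 at 0.53. That mean includes the 0 h libraries, so it favours genes that were high at 0 h and low later. MYC and SNORD36A lay under 10 at 8 and 12 h and reached it through 0 h alone. MIR3064 at -0.65, RPS14P3 at -0.40, PFDN4 at -0.30, SLIRP at -0.29, CALM2 at -0.24 and PCNA at -0.23 sped up most. The zinc finger list had 55 of 86 genes that slowed and 3 that sped up, and the oxidative phosphorylation list 1 and 56 of 78. The late and the early rate share the 8 h libraries, and with all 12 libraries in the fit 145 and 3 genes were called. Without 8 h replicate 1 the 1646 became 671, and without 8 h replicate 2 they became 713.

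The late fall of the knockdown cells was measured alongside. ALKBH5 checked the labels at 25.4 and 21.2 in lines D and E at 0 h, against 84.3 and 78.6 in shNS. Over the last 4 h the median gene kept 48.1% in line D and 32.9% in line E, the lines differing more than the shNS replicates did. No gene (0%) was called in the limma test of the difference between the arms, where 194 genes had an unadjusted p under 0.05 on the relative scale and 260 as deposited. RPS14P3 kept 17.7% and 28.8% and PCNA 17.8% and 22.3% in the lines, both below their median gene, and DPP7 82.7% and 58.3%, above it.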

How the data were processed

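The authors deposited 1 table of signal per gene symbol, a positive value with no 0, together with 46 ERCC rows. Alignment and quantification tools STAR and RSEM and the build GRCh38 come from the submitters' processing notes. Versions, settings and the scaling step were not given in the sources used here. In all 12 libraries the median ERCC value was 29.9 to 33.1, so the signal reads as a level per unit of spike-in, a step no label states. Columns were matched to samples by name, and knockdown columns to their group and line letter only. Without read depths no counting interval could be given, and precision rests on 2 libraries a group.

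Tests used limma 3.58.1 (trend, empirical Bayes; R 4.3.3) on log2(signal + 0.1), fitted to 3 group means of the 6 shNS libraries, for 9529 genes with a mean of at least 1, with Benjamini-Hochberg adjusted p under 0.05 called. A pseudocount of 0.1 was used because a larger one makes genes that are low at 12 h look more stable. The fit was made as deposited and after median-of-ratios scaling (the relative scale), and the difference between arms on all 12 libraries. Percent left is the ratio of deposited signals within a replicate. Of the symbols 9144 matched GENCODE release 29, 226 matched through older symbols and 159 did not match. The fit was checked on made-up values with known changes.

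Members, 34 gene lists and tests were chosen with earlier results of these data known. Named were, for each late result, the 12 called genes with the largest change each way with a mean of at least 10 and groups apart, 6 each way for rates, those nearest 0, members of each list with the highest signal or largest called change, and 8 fixed genes; the text gives a part. The main fit did not pair libraries by replicate number. Differences between replicates correlated over genes by 0.23, 0.02 and 0.09 between times, which does not settle whether the numbers pair the libraries. Percent left and counts of genes in both replicates match libraries by that number alone. Some items are not reported here. Alternatives covered the pseudocount, the filter, the scaling, the libraries fitted, the replicate block and leaving out each library; centring on the median gene was added after seeing the data.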

Additional observations from a re-analysis of the deposited data

Results flagged for a closer look

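Late change relative to the median gene had 1 sign in both shNS replicates and the other in both knockdown lines for 3 of the 79 genes followed by name. The limma test of the difference between the arms called none of the 3 (adjusted p = 1 for each). TPX2 stood at 0.27 and 0.20 in the shNS replicates and at -0.44 and -0.24 in lines D and E, a difference of 0.58, with both replicates above both lines. GAPDH stood at 0.36 and 0.28, and at -0.14 and -0.02, a difference of 0.39. FTO stood at -0.37 and -0.39, and at 0.00 and 0.01, a difference of -0.39. The rule set no minimum size, and FTO in both lines and GAPDH in line E lay close to the median gene.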

How the results depend on the processing

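Depth is unknown and each group holds 2 libraries, so calls rest on a spread shared across genes, and signals under 1 at 12 h are the least certain. With all 12 libraries in the fit the late relative counts were 0 higher and 0 lower, the deposited rate counts 12 less negative and 5334 more negative, and the relative rate counts 145 and 3. Scaled to the total gene signal, the late relative counts were 875 higher and 2882 lower and 667 genes sped up; scaled to ribosomal protein genes, 1007 were higher, 5239 slowed and 73 sped up. The 101 genes whose deposited rate was less negative became 308 at a pseudocount of 1 and 157 after rescaling to the ERCC transcripts. Leaving out 1 library at a time gave 1013 to 1860 genes lower, 45 to 149 with a less negative deposited rate and 671 to 1908 that sped up. The cause of these moves was not tested. The filter on low values removed no gene.

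As deposited, leaving out 1 library turned the sign of RMRP (-0.10 to 0.50), RN7SK (-0.21 to 0.72), RN7SL1 (-1.74 to 1.01), RN7SL2 (-1.56 to 1.68) and SNORD86 (-1.23 to 0.12). On the relative scale it turned MIR4721 (-3.70 to 0.17), RNA28S5 (-0.14 to 1.27) and NEAT1 (-0.027 to 0.06). NEAT1 was also below 0 with all 12 libraries (-0.013), with 4 libraries (-0.053), under total scaling (-0.18), under ribosomal protein scaling (-0.13) and centred on the median gene (-0.056). The replicate number was also used as a block, although it is not known to pair the libraries. Then 9512 genes were lower as deposited, and 2795 were higher and 1689 lower on the relative scale. A more and a less negative deposited rate was called for 8478 and 140 genes, 2625 slowed and 1619 sped up, and 0 differed between the arms.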
